A study of Mus musculus with 2 samples.

Results

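Transcripts of genes that encode a FERM domain, the domain through which ezrin docks at the plasma membrane, were compared between EzrinT567D positive and EzrinT567D negative mouse hepatocytes. The members are a list of 41 gene symbols taken from the protein family, and every probe set annotated to 1 of these genes alone was read. Of the 41 genes, 38 had such a probe set among 18193 genes on the array, and Epb41, Fermt1 and Ptk2 had none here. Only 1 FERM gene, the focal adhesion kinase relative Ptk2b, reached a 2-fold difference, and its second detected probe set did not show it. The members above background in both arrays lay within 2-fold, and 11 genes were below background in both. The remaining members, detected in 1 array only, gave a bound under 2-fold or no direction, so their full difference is not known. Nf2 and Krit1 had the highest and Jak1 and Ptpn3 the lowest measured ratios. For Nf2, Krit1 and Jak1, at least 1 other detected probe set did not share that direction. Ptpn3 had a single probe set.

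Both samples came from male FVB mice of 6 to 8 weeks, all injected hydrodynamically through the tail vein with 10 µg of the PT3EF5α EzrinT567D plasmid and 0.8 µg of pCMV/SB in 2 ml of saline. EzrinT567D carries an acidic residue in place of a threonine whose phosphorylation opens and activates ezrin, and SB denotes the Sleeping Beauty transposase, which integrates the transgene. Collagenase-isolated hepatocytes were sorted 1 week later into GFP-positive cells, which the labels equate with EzrinT567D, and GFP-negative cells, which share the injection and the isolation. RNA of each fraction was read on 1 Affymetrix Mouse Genome 430 2.0 array, so no comparison here has replicate error or a test. Growth protocols give chow for both samples, whereas the description fields give 2 months for both and name a fast food diet on the positive side only, so diet and the sort cannot be told apart. How many mice were used, and whether both fractions came from the same livers, is not stated in the labels used here.

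FERM proteins sit under the plasma membrane, where the domain binds phosphoinositides and the tails of membrane proteins. Ezrin, radixin and moesin tie the membrane to cortical actin, and in hepatocytes radixin holds transporters in the bile canalicular membrane. The family also holds merlin, an upstream activator of the Hippo kinases that restrain Yap, and talins and kindlins, which switch on integrins. Focal adhesion kinases, Janus kinases, tyrosine phosphatases, sorting nexins and myosins with the same fold complete it.

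Signals below are MAS5 intensities on a linear scale, given first for the negative and then for the positive array, and ratios are log2 of positive over negative. The background floor, the 95th percentile of 87 probe sets for chemosensory receptors that hepatocytes are not expected to use, was 272.40 for the negative array and 333.98 for the positive one. A probe set above the floor in both arrays has a measured ratio. One above it in a single array has only a bound, with the dim signal raised to its floor, or no direction where that bound is at or under 1-fold. The probe set with the highest mean signal stands for its gene. Median signals of all 45101 probe sets were 174.2 and 187.6. The 3′ to 5′ ratio was 0.970 and 0.864 for Actb but 3.46 and 3.13 for Gapdh, so the 2 controls differed. Over 3141 genes with at least 2 measured probe sets, the ratios of the 2 brightest differed with an SD of 0.41, which corresponds to 0.29 for 1 ratio. That spread is technical and leaves out variation between mice. Both probe sets are read on the same 2 arrays, so it also leaves out error that they share, as from RNA preparation. In bulk RNA, fewer cells of a type and less RNA per cell cannot be told apart.

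All 9 hepatocyte markers with a probe set, among them Alb and Hnf4a, exceeded the floor in both arrays, and their summed signal was 281508.3 and 253120.2. All 6 platelet markers and all 5 bile duct markers were below the floor in both arrays. Of 9 lymphocyte, neutrophil and pan-leukocyte markers, 8 were below it in both, Ptprc among them, and Cd79a exceeded it only in the negative array. Kupffer cell markers were partly present, with 5 of 12 above the negative floor, 4 above the positive one and a summed signal of 4189.4 and 3122.2. Endothelial markers were above it for 8 of 10 and 6 of 10, with sums of 5047.8 and 5216.9, and stellate markers for 6 of 9 and 7 of 9, with sums of 3575.0 and 3654.0. Of 4 red cell markers, 3 were above the negative and 2 above the positive floor, with sums of 1476.8 and 1223.6; Alas2 (0.09) and Epor (0.31) were measured and Hba-a1 was below the floor in both. No marker was at 0.

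The start-site windows of 5 members are shown because the results turn on their genes or because they hold letters tied to the pathway. Ezr is the endogenous counterpart of the transgene, Nf2 had the highest and Jak1 the lowest measured ratio, and Ptpn14 and Myo10 hold the core CATTCC of TEAD factors, the DNA-binding partners of Yap. Each window covers 250 bases before and 50 after the start of a RefSeq transcript (GRCm38.p6), written 5′ to 3′ along the gene, with a match to CATTCC on either strand in capitals.
Ezr, chr17:6782731-6783030, minus strand: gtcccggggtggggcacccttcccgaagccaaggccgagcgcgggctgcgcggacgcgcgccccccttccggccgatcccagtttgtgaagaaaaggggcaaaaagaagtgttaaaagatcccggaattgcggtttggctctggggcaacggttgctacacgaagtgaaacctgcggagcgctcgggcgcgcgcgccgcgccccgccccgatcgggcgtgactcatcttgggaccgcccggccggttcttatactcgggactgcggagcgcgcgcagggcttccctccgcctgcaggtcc
Nf2, chr11:4849495-4849794, minus strand: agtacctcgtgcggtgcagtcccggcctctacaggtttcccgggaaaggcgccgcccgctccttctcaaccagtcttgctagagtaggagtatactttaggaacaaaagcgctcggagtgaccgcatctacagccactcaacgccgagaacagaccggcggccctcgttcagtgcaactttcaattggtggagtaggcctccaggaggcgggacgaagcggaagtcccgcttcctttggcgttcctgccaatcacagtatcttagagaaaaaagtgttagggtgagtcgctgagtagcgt
Jak1, chr4:101265174-101265473, minus strand: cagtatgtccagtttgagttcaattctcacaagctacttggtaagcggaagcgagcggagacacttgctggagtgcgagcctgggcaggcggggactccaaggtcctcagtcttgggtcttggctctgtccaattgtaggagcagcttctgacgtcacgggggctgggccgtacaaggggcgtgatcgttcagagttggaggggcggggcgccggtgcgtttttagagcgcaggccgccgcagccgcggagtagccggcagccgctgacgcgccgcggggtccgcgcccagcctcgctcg
Ptpn14, chr1:189728018-189728317, plus strand: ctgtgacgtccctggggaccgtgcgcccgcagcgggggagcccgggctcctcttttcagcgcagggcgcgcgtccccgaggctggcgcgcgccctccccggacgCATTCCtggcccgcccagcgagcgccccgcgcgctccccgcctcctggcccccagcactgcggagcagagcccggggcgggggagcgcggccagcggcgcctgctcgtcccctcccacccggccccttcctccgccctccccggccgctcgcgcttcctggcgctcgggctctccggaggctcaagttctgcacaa
Myo10, chr15:25752956-25753255, plus strand: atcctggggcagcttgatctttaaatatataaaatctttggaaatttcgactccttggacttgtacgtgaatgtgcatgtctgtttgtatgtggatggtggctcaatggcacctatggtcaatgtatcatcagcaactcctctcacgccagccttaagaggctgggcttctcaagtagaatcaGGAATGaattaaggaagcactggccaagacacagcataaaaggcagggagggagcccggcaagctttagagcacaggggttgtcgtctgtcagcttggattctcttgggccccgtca

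RefSeq windows matched 34 of the 41 members. CATTCC occurred in 4 of these 34 genes (11.8%), namely Ptpn14, Epb41, Ptpn21 and Myo10, against 16.6% of 27025 genes with a window of this length. The STAT core TTCNNNGAA, bound by factors that Janus kinases activate, occurred in 1 member, Epb41l1 (2.94%), against 9.55% of all genes. The Ezr, Nf2 and Jak1 windows printed above held neither.

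**Figure D1:**
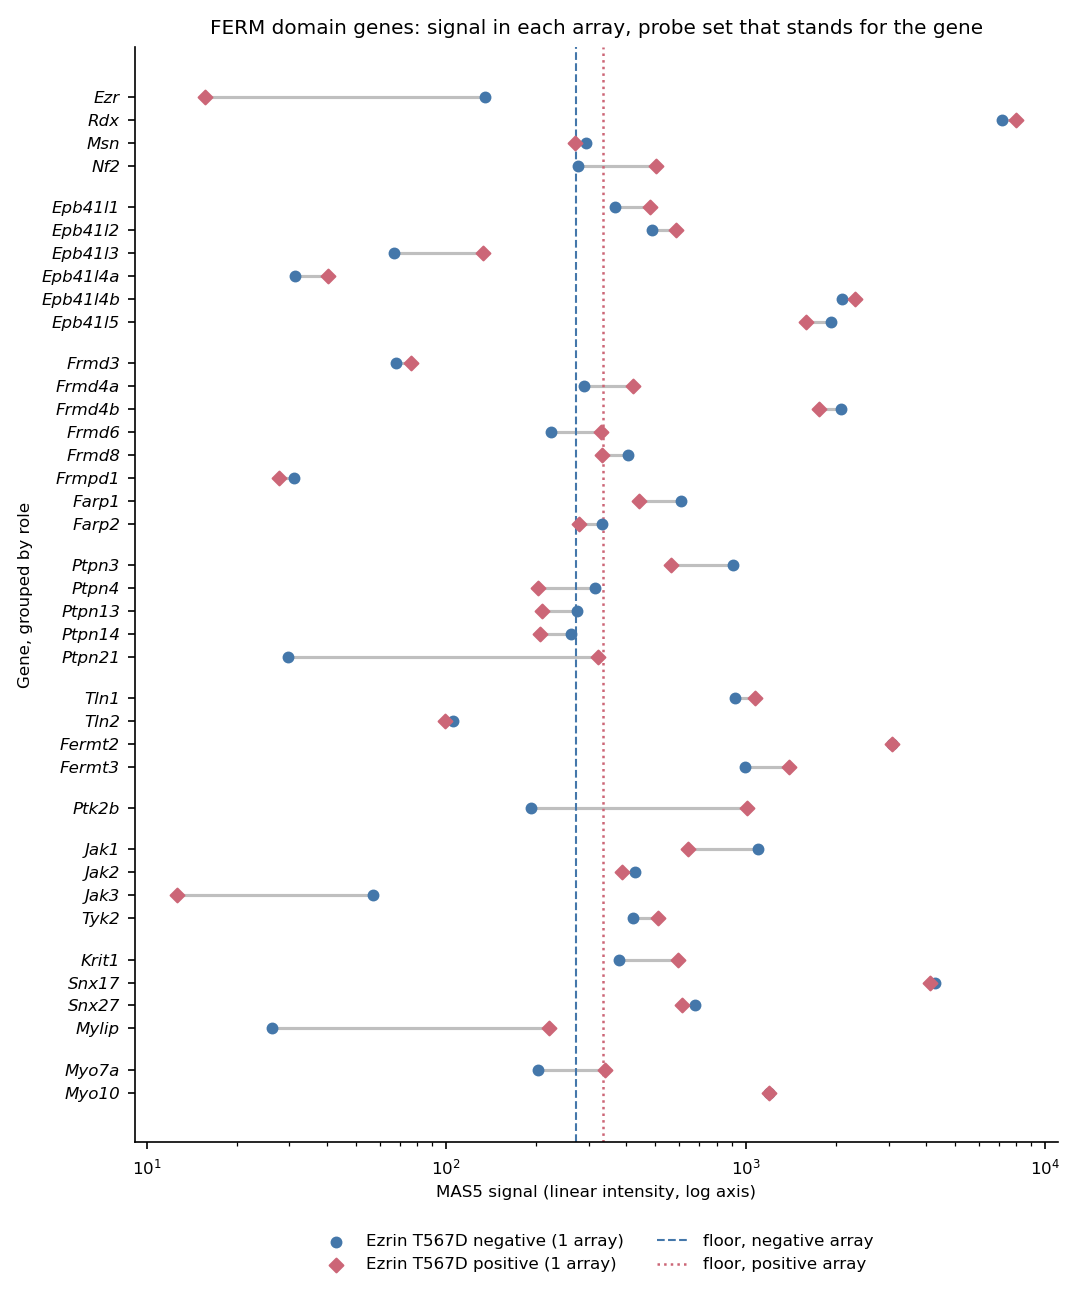
MAS5 signal (log axis) of the probe set that stands for each of the 38 FERM domain genes with one, in the negative array (circles) and the positive array (diamonds), 1 array each, with the floor of each array as a vertical line. Most pairs of points lie close together, Ptk2b crosses from 192.1 to 1007.8, and Ezr lies below both floors.

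Of the 38 genes, 20 were above the floor in both arrays, 7 in a single array and 11 in neither. Of the 27 detected genes, 13 were higher in the positive array, 10 lower and 4 had no direction. Their median log2 ratio was 0.00, as over all 9904 genes above the floor. Genes without a direction are set to 0 and hold the middle of both sets, so this match follows from the coding. Across the 20 measured members the median was 0.074, against a median of 0.00 over 8268 measured genes, and the median absolute ratio was 0.27 against 0.21. At least 2-fold higher was 1 member of 27, where the share of all genes was 1.14%, and at least 2-fold lower were 0 of 27, where it was 0.596%. By probe sets, 1 of 49 above the floor was 2-fold higher and 0 were 2-fold lower, where the shares over all genes' probe sets were 1.26% and 0.514%. At the smaller step of 0.5, chosen after the values were seen, 4 of 27 members were higher (8.68% of all genes) and 2 of 27 lower (6.16%). These 6 were Ptk2b, Nf2, Krit1, Frmd4a, Jak1 and Ptpn3. The members nearest to 2-fold without reaching it were Nf2 (0.86) and Krit1 (0.65) on the higher side and Jak1 (-0.77) and Ptpn3 (-0.69) on the lower side.

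**Figure D2:**
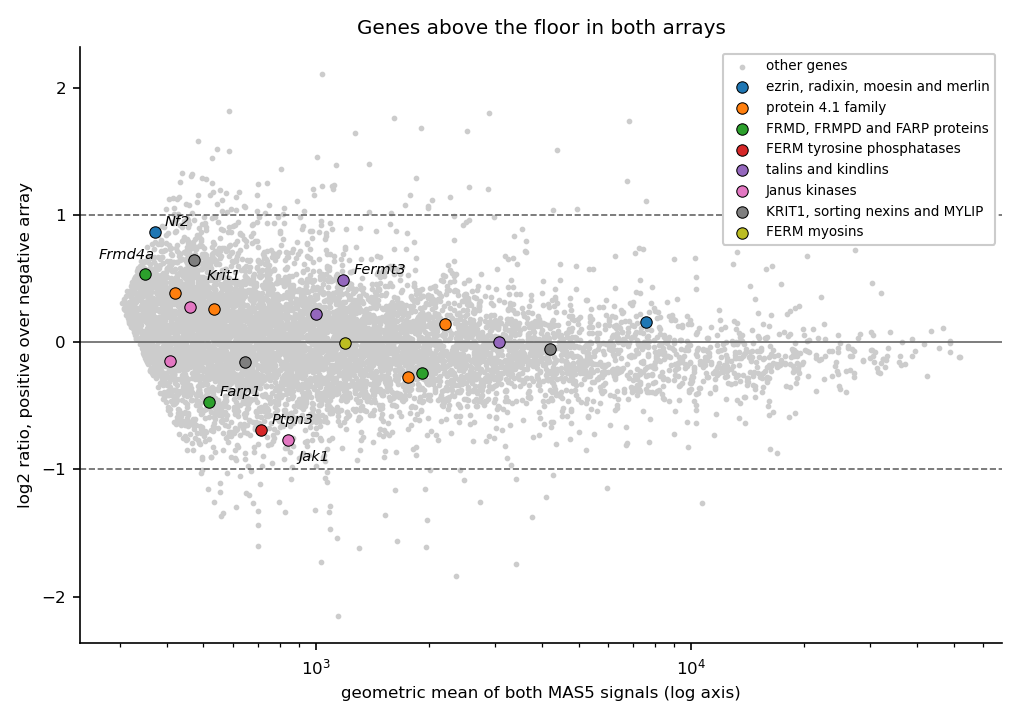
Log2 ratio, positive over negative, against the geometric mean of both signals (log axis) for genes above the floor in both arrays, with the 20 measured FERM domain genes coloured by role and dashed lines at 2-fold. The members lie inside the cloud of other genes, from Jak1 at -0.77 to Nf2 at 0.86.

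Among the ezrin, radixin, moesin and merlin genes, radixin was detected with small ratios of both signs, ezrin was not detected, and merlin was higher in 1 of its 2 measured probe sets. For Ezr, probe set 1450850_at read 135.3 and 15.7 and 1456725_x_at read 7.6 and 13.6, all below the floor. The labels do not state the species or the 3′ end of the ezrin in the plasmid, so these probe sets do not check the sort. Rdx read 7171.3 and 8001.6 in its brightest probe set, 4162.8 and 4013.7 in the second and 4048.4 and 3270.9 in the dimmest of the 3. The ratios were 0.16, -0.05 and -0.31, so they differed in sign and stayed near the technical spread.

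Msn, which encodes moesin, the member known mainly from leukocytes and endothelium, read 293.2 and 269.1 in one probe set, and passed the negative floor alone. Its other probe set, at 66.8 and 176.9, was below the floor. Nf2, which encodes merlin, read 274.6 and 500.1 in 1450382_at (0.86, 1.82-fold higher), with the negative signal barely above its floor. The second measured probe set, 1451829_a_at, was level at 365.3 and 367.9 (0.01). Another, 1421820_a_at, read 391.2 and 244.8, a bound of -0.23, and the fourth, at 136.3 and 304.6, was below the floor. The 3 detected Nf2 probe sets thus pointed up, level and down, and the mean of the measured pair was 0.44.

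**Figure D3:**
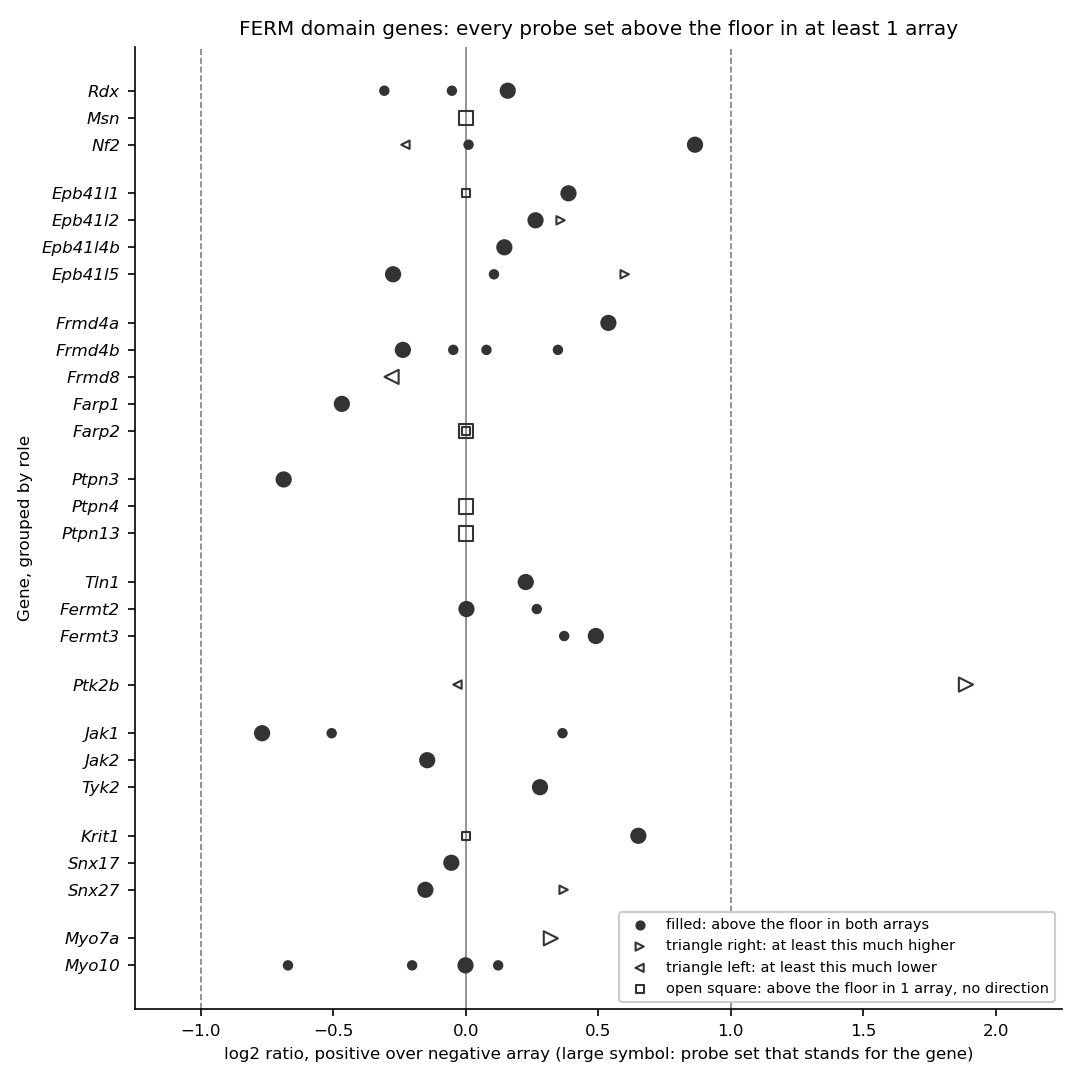
Log2 ratio, positive over negative, for the 49 probe sets of FERM domain genes above the floor in at least 1 array, by gene and role, with large symbols for the probe set that stands for the gene and dashed lines at 2-fold. Ptk2b, at a bound of 1.89 and a second bound of -0.03, is the only gene past a dashed line, and the 3 Jak1 probe sets fall on both sides of 0.

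The Epb41 family, which couples spectrin and actin to membrane proteins in the red cell and in epithelia, had small ratios in its brightest probe sets. Epb41l2 read 488.5 and 586.2 (0.26), and a second probe set at 270.9 and 349.0 gave a bound of 0.36. Epb41l1 read 366.9 and 479.9 (0.39), while another of its probe sets, at 299.0 and 283.0, had no direction. Both genes were thus slightly higher in their brightest probe set, by amounts near the technical spread.

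Epb41l4b, whose product organises cortical actomyosin in epithelia, read 2101.4 and 2324.1 (0.15). Epb41l5, a partner of the Crumbs polarity complex, read 1928.1 and 1593.8 (-0.27) and 466.4 and 502.0 (0.11), and another probe set at 257.8 and 412.7 gave a bound of 0.60. Its 3 probe sets therefore did not share a direction. Epb41l3, at 66.8 and 132.8 in its brightest probe set, and Epb41l4a, at 31.3 and 40.4, were below the floor.

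The FRMD and FARP genes were divided between higher and lower. Frmd4a, whose product links cytohesins to the Par polarity complex, read 289.7 and 420.6 (0.54, 1.45-fold higher), from a negative signal near the floor. Farp1 read 608.9 and 440.2 (-0.47, 1.38-fold lower). Each had a single detected probe set, so neither has a second reading on these arrays.

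Frmd4b, a cytohesin-binding relative of Frmd4a, had 4 measured probe sets. They read 2073.2 and 1758.3, 918.3 and 969.2, 786.8 and 1001.0, and 747.9 and 723.7, with ratios of -0.24, 0.08, 0.35 and -0.05. A level transcript and a small difference cannot be separated in such a set. Frmd8, which stabilises iRhom sheddase complexes, read 405.6 and 331.2, a bound of -0.28 that rests on a positive signal just under its floor. Farp2 passed the negative floor alone, at 330.2 and 278.5 and at 281.8 and 265.3. Frmd6, an upstream Hippo regulator also called willin, read 223.7 and 328.9, the latter just under its floor. Frmd3, at 68.1 and 76.2, and Frmpd1, at 31.1 and 27.6, were also below it.

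Of the tyrosine phosphatases with a FERM domain, only Ptpn3 was measured in both arrays, and it was lower in the positive one. Ptpn3 read 904.2 and 561.4 (-0.69, 1.61-fold lower) in its single probe set, and its log2 ratio stayed between -0.74 and -0.69 under every processing setting that gave one. Ptpn4 read 313.3 and 203.4 and Ptpn13 read 273.1 and 208.9, both past the negative floor alone and without a direction. Ptpn14, which binds Yap and holds it in the cytoplasm, read 260.5 and 205.6 in its brightest probe set and lay below the floor in all 3. Ptpn21 was below it as well, although 1419055_a_at read 29.7 and 322.5, the latter close to the positive floor. Every phosphatase other than Ptpn21 read lower in the positive array in its brightest probe set, but 3 of those 4 had a positive signal under the floor.

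Talin and kindlin genes were level or slightly higher. Tln1, whose product binds integrin tails and pulls integrins into the active state, read 922.1 and 1078.5 (0.23), and its other 2 probe sets were below the floor. Fermt2, the kindlin of solid tissues, read 3070.3 and 3075.3 (0.00) and 2268.6 and 2731.1 (0.27). Fermt2 was therefore level in one probe set and within the technical spread in the other. Tln2 was below the floor in all 3 of its probe sets.

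Fermt3, the kindlin of blood cells and platelets, was higher in both measured probe sets. They read 994.0 and 1396.6 (0.49, 1.41-fold higher) and 754.0 and 975.2 (0.37). Both carry a suffix that marks probes shared between transcripts. Without shared or mixed probe sets, Fermt3 had no ratio. The other Fermt3 probe sets, at 171.8 and 174.7 and at 85.9 and 53.3, were below the floor. Over the blood cell lists the platelet markers summed to 660.2 and 843.7, all 6 below the floor. The leukocyte markers summed to 888.3 and 1013.2, with 8 of 9 below it in both arrays. Each of these sums was higher only through 1 marker below the floor, Gp5 (44.9 and 236.0) and S100a8 (23.6 and 253.1). Among the others, Pf4, Itga2b, Gp9, Ptprc, Cd79a, Nkg7, S100a9 and Coro1a read lower in the positive array. Ppbp, Gp1bb, Cd3e, Cd3g and Itgb2 read higher. Apart from Cd79a in the negative array, all of these signals were below the floor. Macrophage and Kupffer cell markers summed to 4189.4 and 3122.2. The part of these cell types in the Fermt3 signal was not tested.

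Ptk2b encodes Pyk2, the calcium-responsive relative of focal adhesion kinase, and had the largest ratio of the family in its brightest probe set. Probe set 1434653_at read 192.1 and 1007.8, below the floor in the negative array, so this probe set was at least 3.70-fold higher in the positive one (a bound of 1.89). The other probe set, 1442927_at, read 341.4 and 79.5 and passed the negative floor alone, with a bound of -0.03. Against the floor, 1 of the 2 probe sets was thus higher and the other lower, by an amount that the floor leaves unknown. Which of them reports the transcript cannot be read from 2 arrays. Ptk2b is expressed in macrophages and lymphocytes, and the Kupffer cell markers summed to a lower signal in the positive array, 0.745 times that in the negative one. Of the 12, 4 were measured, with Csf1r higher (0.33) and Clec4f, C1qb and Lyz2 lower (-0.10, -0.66 and -0.40), while Adgre1, Cd68, Marco, Vsig4, Timd4, C1qa and C1qc were below the floor in both. Their part in the Ptk2b signal was not tested.

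Of the Janus kinases, which sit on cytokine receptor tails through their FERM domain, Jak1 was lower in 2 of 3 probe sets. Jak1, used by interferon and interleukin receptors, read 1097.0 and 643.7 (-0.77, 1.70-fold lower), 498.6 and 351.0 (-0.51), and 402.6 and 518.4 (0.36). The first and last of these differed by 1.13 in log2 ratio, beyond 2-fold, which 2.58% of the 3141 genes with at least 2 measured probe sets showed between their 2 brightest. Jak1 averaged -0.30 over the 3 probe sets.

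Jak2, the kinase of the growth hormone receptor, read 427.5 and 386.4 (-0.15). Tyk2, which serves type I interferon receptors, read 419.1 and 508.8 (0.28). Both stayed within the technical spread of 1 ratio. Jak3, the Janus kinase of lymphocytes, was below the floor at 57.2 and 12.6 in its single probe set.

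Krit1, Snx17, Snx27 and Mylip encode adaptors in which the FERM domain recognises short peptide motifs of cargo or partners. Krit1, a component of the CCM complex at cell junctions, read 377.2 and 592.3 (0.65, 1.57-fold higher) in 1428729_at. Another Krit1 probe set, 1448701_a_at, read 305.5 and 249.8 and had no direction, and 3 more were below the floor. The higher Krit1 ratio therefore rests on 1 of 2 detected probe sets.

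Snx17, which recycles integrins and LRP1 from endosomes, read 4285.9 and 4126.1 (-0.05). Snx27, which hands cargo to retromer, read 679.6 and 611.3 (-0.15), with a bound of 0.37 in a second probe set at 258.1 and 351.8. Snx17 was thus level, whereas the detected Snx27 probe sets pointed in opposite directions. Mylip, a ubiquitin ligase that sends lipoprotein receptors to the lysosome, was below the floor at 26.3 and 220.3.

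The myosins with a FERM domain in their tail showed no common change. Myo10, the motor of filopodia, had 4 measured probe sets at 1196.5 and 1195.4, 629.9 and 395.5, 575.0 and 625.7, and 534.6 and 464.5. Their ratios were 0.00, -0.67, 0.12 and -0.20, so 1 of 4 moved beyond the technical spread. Myo7a, a motor of stereocilia and of the retina, read 203.3 and 340.2, a bound of 0.32 from a positive signal just above its floor.

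Probe sets of 1 gene often disagreed. Of the 8 members with at least 2 measured probe sets, 5 (Rdx, Epb41l5, Frmd4b, Jak1 and Myo10) had ratios of both signs, against 51.2% of 3141 such genes, most of which lie near 0. The range of ratios within a member had a median of 0.53, against 0.36 over all such genes. No test of that difference was made, since a gene with more probe sets has a wider range by construction. Fermt2, Fermt3 and Nf2 were the members whose measured probe sets shared a sign.

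Genes that act with the FERM proteins were read from 7 partner lists. Ezrin, radixin and moesin partners and kinases had 10 of 16 genes above the floor, with 6 higher, 3 lower and 1 without a direction, none at 2-fold and a median of 0.08. Icam1, an adhesion receptor that binds these proteins, read 396.9 and 545.3 (0.46), and the scaffold Pdzk1 read 1195.0 and 1544.8 (0.37). Hippo components that work with merlin, Frmd6 and Ptpn14 had 13 of 15 genes above the floor, with 4 higher and 9 lower, none at 2-fold and a median of -0.12. The kinase Stk4, which merlin helps to activate, read 1006.3 and 586.4 (-0.78) and was also lower in its other detected probe set (-0.45). Tead1, a Yap partner, read 591.9 and 359.4 (-0.72). Merlin and the kinase below it thus had brightest probe sets on opposite sides of 0.

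Integrin adhesion partners of talin, kindlin and focal adhesion kinase had 18 of 21 genes measured, with 11 higher, 7 lower, none at 2-fold and a median of 0.03. Zyx, a focal adhesion protein, read 290.2 and 495.1 (0.77), and the kinase substrate Bcar1 read 1767.9 and 1231.2 (-0.52), although its other measured probe set, at 852.8 and 1002.2, gave 0.23. Spectrin partners of the Epb41 family had 9 of 12 above the floor, with 4 higher, 5 lower, none at 2-fold and a median of -0.04. Gypc, a red cell glycoprotein, had a ratio of -0.39, and Mpp1, its membrane scaffold partner, of 0.27. The red cell markers summed to 0.829 times the negative signal in the positive array. That sum was lower through Slc4a1 (273.9 and 66.5, no direction) and Hba-a1 (222.7 and 62.9, below the floor). The 2 measured markers, Alas2 (0.09) and Epor (0.31), were higher. The part of red cells in the Gypc and Mpp1 ratios was not tested. Members of both lists lay on both sides of 0.

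Receptors, STATs and SOCS proteins around the Janus kinases had 18 of 22 genes above the floor, with 9 higher, 9 lower, none at 2-fold and a median of 0.06. Il13ra1, a receptor chain for interleukins, read 1427.7 and 762.4 (-0.91), while 2 other measured probe sets gave -0.05 and -0.30. Socs2, a growth hormone target that feeds back on its receptor, read 809.3 and 1502.2 (0.89), with 0.70 and 0.07 in its other 2 probe sets. The 2 genes farthest from 0 in this list therefore lay on opposite sides.

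Partners of KRIT1 had 5 of 8 genes measured, with 2 higher, 3 lower, none at 2-fold and a median of -0.02. Map3k3, the kinase that the CCM complex restrains, read 650.8 and 1062.6 (0.71), and Klf2, a transcription factor downstream of that kinase, read 489.3 and 349.7 (-0.48). Sorting and lipoprotein receptor partners of Snx17, Snx27 and Mylip had 10 of 13 genes measured, with 5 higher, 5 lower, 1 at 2-fold and a median of -0.04. That gene was Vldlr, a lipoprotein receptor that the MYLIP ligase degrades, at 321.3 and 922.6 (1.52, 2.87-fold higher) in a probe set whose suffix marks probes shared with other transcripts. Ube2d1, the conjugating enzyme that works with MYLIP, had a ratio of -0.36.

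**Figure D4:**
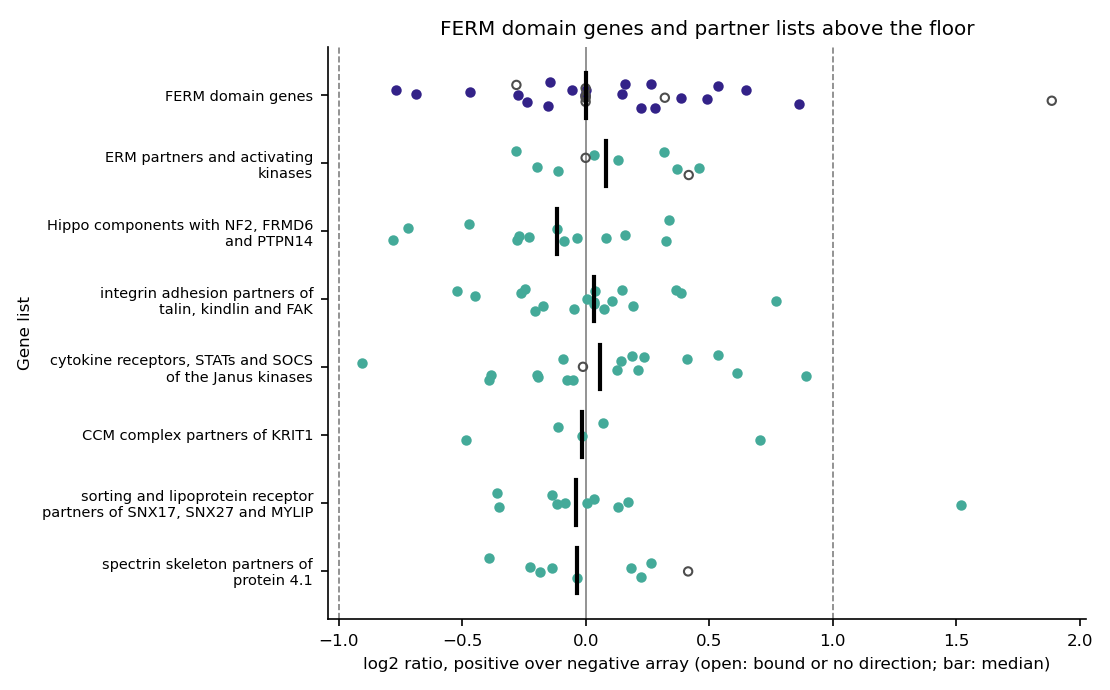
Log2 ratio, positive over negative, for the FERM domain genes and 7 partner lists, with filled points above the floor in both arrays, open points for bounds or no direction, bars at the median and dashed lines at 2-fold. List medians lie between -0.12 and 0.08, and Vldlr at 1.52 is the only partner past 2-fold.

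Genes with a FERM domain outside the member list added little. Of 12 such genes 9 had a probe set, and only Frmd5 exceeded the floor, at 457.9 and 625.6 (0.45). Its ratio was below those of Frmd4a and Nf2.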

How the data were processed

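RNA of 2 sorted hepatocyte fractions was measured, 1 array each, grouped by the group label. The authors deposited intensities on a linear scale, made with MAS5 per the submitters' processing notes; its version and settings are not stated. Both arrays had a 2% trimmed mean of 500.0, so a shift of all transcripts cannot be seen. With no counts, precision is limited by the number of arrays.

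From these values, log2 ratios of positive over negative were computed in Python 3.11.15 (numpy 2.4.6, pandas 2.3.3) without further normalization and checked on simulated data. The simulation changed only bright genes, by more than 2-fold, so it does not cover small ratios or signals near the floor. Of 45101 probe sets, 34958 carried 1 gene symbol, 932 several, 9160 none, and 64 were controls; only the first were named, and 34754 matched a RefSeq gene by Entrez ID. The floor used olfactory, vomeronasal, taste and trace amine receptors. No build is named for the arrays, so probe sets carry no coordinates. Protein sequences were not used here.

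Members and lists were chosen with earlier results of these data known. Members above the floor are named with each detected probe set; from a partner list, the 2 largest measured ratios and any gene at 2-fold are named. Alternatives changed the floor, the normalization (quantile, or lowess with statsmodels 0.14.6), the probe set summary and the probe set filter.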

Additional observations from a re-analysis of the deposited data

How the results depend on the processing

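Ratios of 27 members were recomputed under 10 alternatives, 2 of them chosen after seeing the data. Of 241 recomputed ratios, 13 in 8 members moved by more than the technical SD of 0.29. Part of the 241 could not move. Keeping only genes above the floor in both arrays leaves each ratio unchanged, and the Ptk2b alternative changes Ptk2b alone. The count of members at least 2-fold higher, 1 at first, was 3 with no floor (Ptk2b, Ptpn21 and Mylip). It was 0 over genes above the floor in both arrays and 0 with the mean over measured probe sets. With Ptk2b read by its other probe set the count was also 0, and the Ptk2b bound became -0.032. Members at least 2-fold lower numbered 2 with no floor (Ezr and Jak3) and 0 otherwise. The median over members was 0.085 with the mean over probe sets and 0.074 over genes measured in both arrays, settings that both keep 20 members. Over all genes, 1629 were 2-fold higher and 1655 lower with no floor, and 71 and 36 with the mean over probe sets. With 1 floor for both arrays 83 genes were higher and 59 lower, against 113 and 59. Nf2 ranged from 0.438 to 0.865, Jak1 from -0.807 to -0.304 and Krit1 from 0.559 to 0.651. Rdx was -0.308 and Epb41l5 0.106 without shared or mixed probe sets. With 1 array per group no replicate could be left out, and signals near the floor limit the low members.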
